A study of Mus musculus with 6 samples.

Results

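The Myc and Mxd network is a group of transcription factors named here by 10 symbols, Myc, Max, Mxd1, Mxd3, Mxd4, Mxi1, Mnt, Mga, Mlx and Miz1. Its members were the genes whose symbol stood alone beside a probe set, and 9 of the 10 were found, each with 1 probe set, among 19938 genes on the array. Miz1 was not found by symbol. Arrays measured the RNA of spleen cells labelled as myeloid-derived suppressor cells (MDSCs), a mixed group of immature myeloid cells that dampen T cell responses. They were taken with beads against CD11b, an integrin of neutrophils, monocytes and macrophages, 10 days after an allogeneic bone marrow transplantation. Both groups held 3 B6D2F1/J recipients, lethally irradiated and given T cell depleted B6 marrow, and each mouse had 1 array. One group had injections of PBS and the other of rapamycin at 1.5 mg/kg, both on alternate days until day 10. Some grafts also held B6 spleen cells and some did not, per the labels, which do not give the mice, so the groups may differ in this. A bead selection on CD11b holds several cell types, and in such bulk RNA fewer cells of a type and less RNA per cell cannot be told apart.

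Apart from Miz1, a name that belongs to no such protein, the proteins of the network share a basic helix-loop-helix leucine zipper domain and bind DNA in pairs. Myc pairs with Max at the E-box CACGTG and raises the transcription of genes for ribosome production, metabolism and the cell cycle. Mxd1, Mxd3, Mxd4, Mxi1 and Mnt compete for Max, bind the same element and repress by way of Sin3 and histone deacetylases. Mga also pairs with Max and belongs to a Polycomb complex, and Mlx is a second hub that pairs with some Mxd proteins, with Mnt and with the glucose-responsive Mondo factors. In maturing myeloid cells Myc is known to decline while Mxd1 rises. The mTOR pathway, which rapamycin inhibits, is known to promote the translation of Myc, a step that an RNA array does not measure.

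Myc RNA was higher and that of the repressors Mxd1 and Mxi1 was lower with rapamycin. Myc rose 1.64-fold, and Mga, the Max-binding Polycomb partner, rose 1.28-fold. Mxd1 was 1.29-fold lower and Mxi1 1.22-fold lower. Max, Mnt, Mxd3, Mxd4 and Mlx did not pass the test. The test was limma's, with Benjamini-Hochberg adjustment over 13965 genes and a threshold of 0.05, and by that rule 2 of 9 members rose, 2 fell and 5 were not called. Of all genes tested 11.3% were called, 4.42% as higher and 6.92% as lower. In 7 of the 9 members the 3 values of one group all lay on one side of the other group's 3, with 2 higher and 5 lower, and this held for 32% of all genes tested (12.6% higher and 19.4% lower). The median log2 change was -0.11 over the 9 members and -0.02 over all genes tested.

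**Figure D1:**
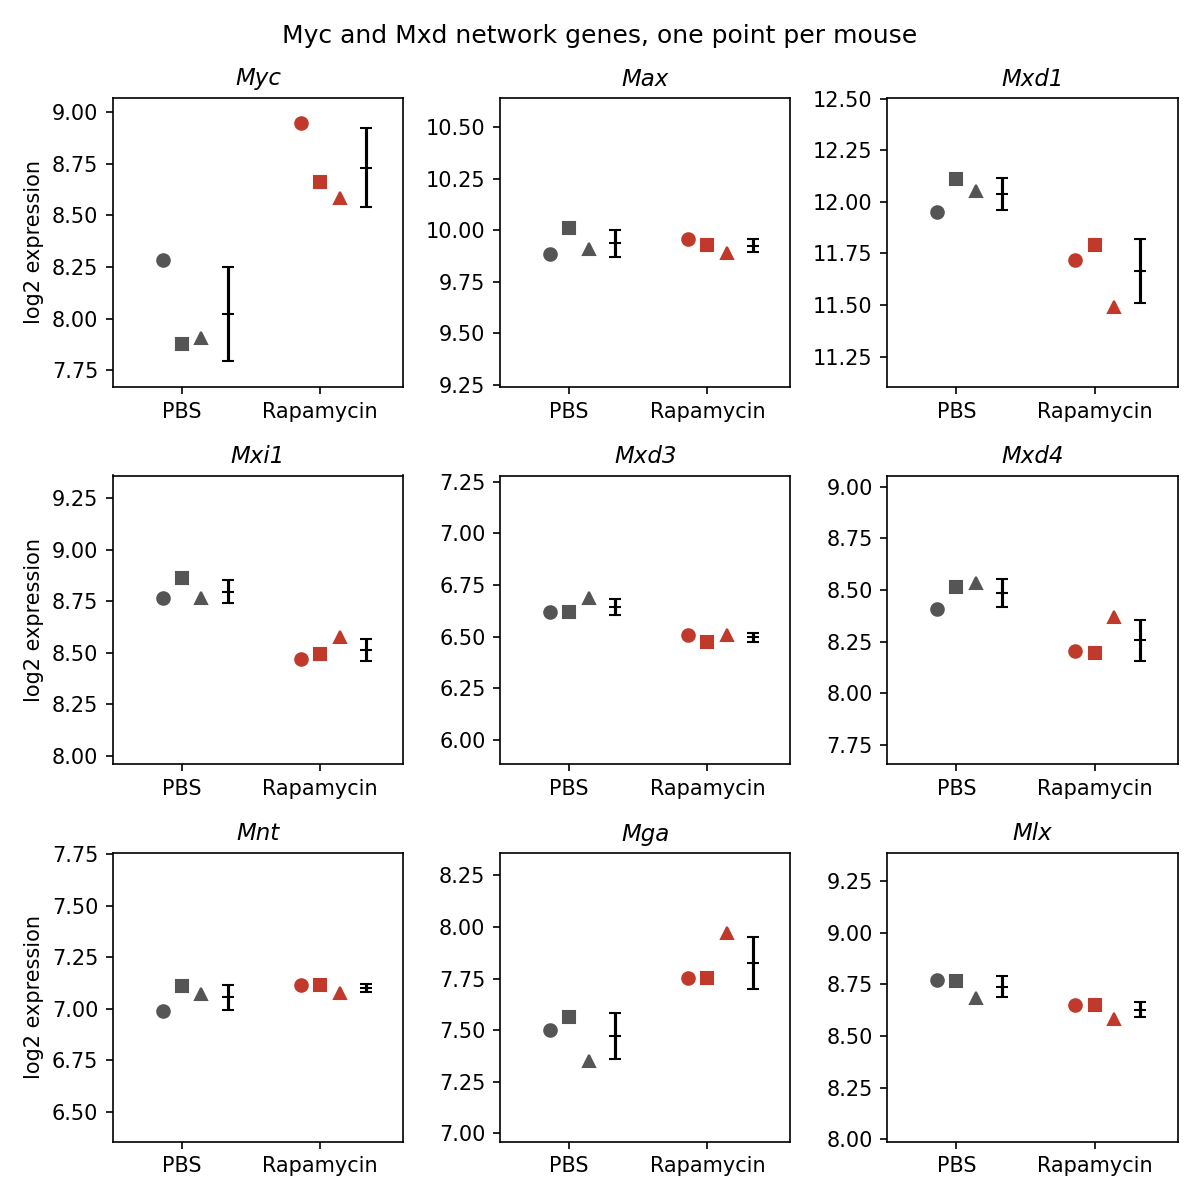
Log2 expression of the 9 measured genes, 1 point per mouse (circle, square and triangle for replicates 1, 2 and 3), with PBS in grey and rapamycin in red. Bars give the mean ± SD of 3 mice, and all vertical axes span the same width around their own gene. The Myc and Mga points are all higher with rapamycin, and those of Mxd1, Mxi1, Mxd3, Mxd4 and Mlx are all lower.

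Myc, the activator of the network, stood at log2 levels of 8.29, 7.88 and 7.90 in the PBS mice numbered 1, 2 and 3. In the rapamycin mice its levels were 8.95, 8.66 and 8.59, in the same order as everywhere below. The lowest rapamycin value lay above the highest PBS value, and mouse 1 was the highest of each group. The group means were 8.02 ± 0.23 and 8.73 ± 0.19 (log2, SD, n = 3 each). Their difference was 0.71 ± 0.13 (SE), with a 95% interval, unadjusted like those below, from 0.40 to 1.02 (limma adjusted p 0.0209). Leaving out 1 array kept the change between 0.60 and 0.84, and the call held in 2 of 6 such fits. It was lost when PBS mouse 2 (adjusted p 0.0943) or 3 (0.0826) or rapamycin mouse 1 (0.0812) or 2 (0.0573) was left out, in fits that also had fewer arrays.

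Max, the shared partner of Myc and its antagonists, had log2 levels of 9.89, 10.01 and 9.91 with PBS and of 9.96, 9.93 and 9.89 with rapamycin. The groups overlapped, and the log2 change was -0.010 ± 0.050 (SE; limma adjusted p 0.915), with a 95% interval from -0.13 to 0.11. Its sign turned to 0.02 when the medians of the genes tested were aligned.

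Mxd1, a repressor known for its presence in mature neutrophils, stood at log2 levels of 11.95, 12.11 and 12.05 with PBS. With rapamycin the levels were 11.72, 11.79 and 11.49. No rapamycin value reached the PBS range, and rapamycin mouse 3 was the lowest. The log2 change was -0.37 ± 0.08 (SE), from 12.04 ± 0.08 to 11.67 ± 0.16 (SD, n = 3 each; limma adjusted p 0.0358). The call held without rapamycin mouse 2 (adjusted p 0.0482) or 3 (0.0470). It was lost without PBS mouse 1 (0.0711), 2 (0.132) or 3 (0.110) or rapamycin mouse 1 (0.106), and also with no brightness filter (0.0510).

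Mxi1, a repressor close to Mxd1 in sequence, had log2 levels of 8.76, 8.86 and 8.77 with PBS. The rapamycin mice were at 8.47, 8.50 and 8.58, all under the PBS values. The log2 change was -0.28 ± 0.05 (SE), from 8.80 ± 0.06 to 8.51 ± 0.06 (SD, n = 3 each; limma adjusted p 0.0187). Leaving out PBS mouse 2 gave an adjusted p of 0.0743, PBS mouse 3 one of 0.0580, rapamycin mouse 1 one of 0.0765 and rapamycin mouse 2 one of 0.0582. The call was kept without PBS mouse 1 or rapamycin mouse 3.

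Mxd4, another Sin3-recruiting repressor, was at log2 levels of 8.41, 8.51 and 8.53 with PBS and of 8.20, 8.19 and 8.37 with rapamycin. The groups did not overlap, but the log2 change of -0.23 ± 0.06 (SE) did not pass the test (limma adjusted p 0.0634; 95% interval from -0.38 to -0.08). It passed at -0.29 without rapamycin mouse 3 (adjusted p 0.0346). It also passed with array weights (0.0387), with the array medians aligned (0.0422) and with a brightness filter at the 50th percentile (0.0484). Mxd3, the family member known for expression in dividing cells, was at log2 levels of 6.62, 6.62 and 6.69 with PBS and of 6.51, 6.47 and 6.51 with rapamycin. Its log2 change of -0.15 ± 0.04 (SE) did not pass the test (limma adjusted p 0.0750; 95% interval from -0.25 to -0.04). With the array medians aligned it passed at -0.17 (adjusted p 0.0484). Mxd1, Mxi1, Mxd3 and Mxd4 all had lower values in each rapamycin mouse than in any PBS mouse, as did 19.4% of all genes tested. Of these repressors 2 were called, while the groups overlapped for the repressor Mnt.

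Mnt, a broadly expressed repressor, overlapped between groups, at log2 levels of 6.99, 7.11 and 7.07 with PBS and of 7.11, 7.11 and 7.08 with rapamycin. Its log2 change was 0.05 ± 0.05 (SE; limma adjusted p 0.573), with a 95% interval from -0.07 to 0.16. Mga was at log2 levels of 7.50, 7.57 and 7.35 with PBS and of 7.75, 7.75 and 7.97 with rapamycin, where each value lay above the PBS range. The log2 change was 0.35 ± 0.08 (SE), from 7.47 ± 0.11 to 7.83 ± 0.12 (SD, n = 3 each; limma adjusted p 0.0370). This call was lost in each of the 6 fits that left out an array. The adjusted p was 0.0944, 0.0850 and 0.106 without PBS mouse 1, 2 or 3, and 0.0960, 0.0678 and 0.0663 when the rapamycin mice were dropped in that order. With no brightness filter its adjusted p was 0.0526.

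Mlx, the partner of the Mondo factors, was at log2 levels of 8.77, 8.77 and 8.68 with PBS and of 8.65, 8.65 and 8.58 with rapamycin. The groups did not overlap, and the log2 change of -0.11 ± 0.05 (SE) did not pass the test (limma adjusted p 0.173; 95% interval from -0.22 to -0.0013). The deposited values of rapamycin mice 1 and 2 were equal to the last digit for Mnt, Mga and Mlx, as for 6.23% of the genes tested, and those of mice 1 and 3 for Mxd3. Equal values narrow the spread of a group of 3.

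The name Miz1 is a synonym of 2 mouse genes, so no value was given to it by symbol. Zbtb17, the zinc finger protein through which Myc represses inhibitors of the cell cycle, had a log2 level of 7.03 ± 0.11 with PBS and of 6.88 ± 0.06 with rapamycin (SD, n = 3 each). Its log2 change was -0.14 ± 0.07 (SE; limma adjusted p 0.207), with a 95% interval from -0.29 to 0.01. Pias2, a SUMO ligase that carries the same synonym, changed by -0.10 ± 0.06 (limma adjusted p 0.279), which did not pass the test.

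**Figure D2:**
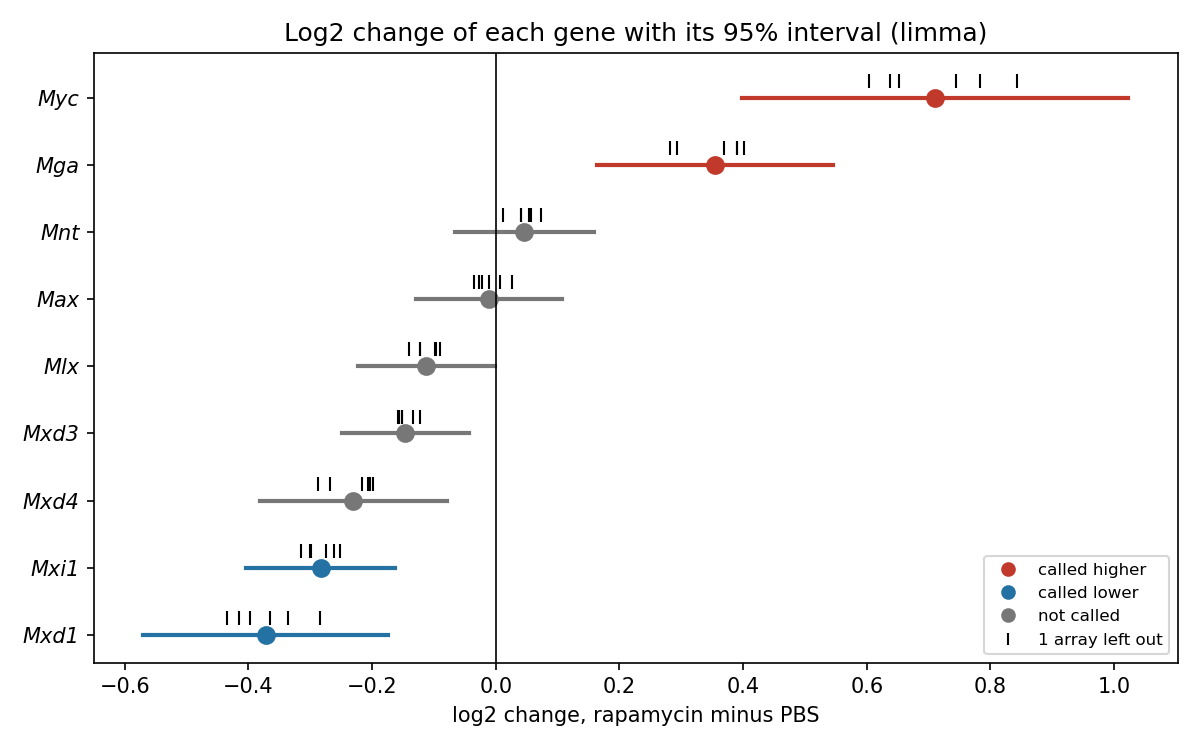
Log2 change of each measured gene, rapamycin minus PBS, with limma's 95% interval, in red where called higher, blue where called lower and grey where not called. Black ticks give the change with each array left out in turn, and they keep the sign of the full estimate for every gene but Max, although most calls of the 4 coloured genes are lost in those fits.

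Genes were ranked by how closely their log2 values, centred on their mean, followed a member over the 6 arrays. Nearest to Myc by root mean square difference were Kynu, an enzyme of tryptophan breakdown (0.039), the class II loading chain H2-DMa (0.040) and the lectin-like receptor Klrb1b (0.042). Nearest to Mxd1 were Foxe1 (0.027), a forkhead factor, the monooxygenase Fmo5 (0.034) and the actin-severing protein Gsn (0.037). With 6 arrays in 2 groups this likeness mostly reflects the difference between groups.

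The E-box that these factors bind was looked for in RefSeq promoter windows of GRCm38.p6, each with 250 bases before and 50 after a start site. The letters CACGTG read the same on both strands. Of 8 members with a window (all 9 but Myc), 4 held the motif, against 11.1% of the tested genes with a window. They were Mxd4, Mnt, Mlx and Max, of which none was called, and in Max the motif ran across the start site. The windows of Mxd1, Mxi1, Mxd3 and Mga did not hold these letters. The stretches below show the element in the 3 members that carry it before the start, 40 bases each, 5′ to 3′ in the direction of the gene, with the E-box in capitals.
Mxd4, chr5:34187907-34187946, minus strand: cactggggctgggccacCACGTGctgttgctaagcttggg
Mnt, chr11:74830784-74830823, plus strand: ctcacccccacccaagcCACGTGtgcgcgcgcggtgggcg
Mlx, chr11:101087233-101087272, plus strand: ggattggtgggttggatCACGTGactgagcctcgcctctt

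The motif began 219 bases before the start in Mxd4, 123 in Mnt and 40 in Mlx. Among the called genes of all kinds, the share with the motif was 14.2% of the 465 higher genes with a window, 11.3% of 789 lower ones and 10.9% of 9806 that were not called. A list of Myc-activated targets held it in 16 of 61 windows (26.2%). A match describes the letters of a window and is not a measured binding site.

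Other factors with the same kind of DNA-binding domain moved in both directions. Of 14 measured, 2 were called higher and 1 lower (21.4%, beside 11.3% of all genes), and their median log2 change was 0.03. Mlxip, which encodes MondoA, the Mlx partner that senses glucose phosphates, stood at log2 levels of 8.52, 8.57 and 8.55 with PBS and of 8.85, 8.83 and 8.91 with rapamycin. Its log2 change was 0.32 ± 0.04 (SE; limma adjusted p 0.00908), with no overlap of the groups, and when each array was dropped in turn the call was lost for PBS mouse 2 alone (0.0505). Tfec, a macrophage-expressed relative of Mitf, rose by 0.50 ± 0.06 (limma adjusted p 0.00820) and kept its call in 6 of 6 fits with an array left out. Srebf2, the sterol regulator, fell by 0.21 ± 0.05 (limma adjusted p 0.0385) and was called in 0 of those 6 fits. The Myc paralogs Mycn and Mycl, near log2 5.98 and 5.38 with PBS, changed by 0.0044 ± 0.053 and -0.02 ± 0.06 (limma adjusted p 0.968 and 0.848). Mlxipl, which encodes ChREBP, changed by -0.02 ± 0.06 (0.855).

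Of 26 measured genes for Myc cofactors and turnover, each tested alone, 2 rose, 3 fell and 21 were not called (median log2 change -0.0050). The share called was 19.2%, beside 11.3% of all genes. Cdk9, the kinase of the elongation factor P-TEFb that Myc recruits, fell by 0.44 ± 0.05 (SE; limma adjusted p 0.00585), from PBS levels of 9.89, 9.85 and 9.90 to 9.43, 9.39 and 9.50 (log2). Its cyclin partner Ccnt1 went the other way, at 0.34 ± 0.06 (adjusted p 0.0211), and Huwe1, a ubiquitin ligase for Myc, rose by 0.33 ± 0.05 (0.0110). Paf1, of the elongation complex of that name, fell by 0.22 ± 0.05 (0.0437), and the F-box gene Fbxl14 fell by 0.25 ± 0.06 (0.0448). Cdk9 kept its call with any array left out. Huwe1 kept it in 3 of 6 such fits, with an adjusted p of up to 0.0570, Ccnt1 in 1 (up to 0.0856), Paf1 in 1 (up to 0.138) and Fbxl14 in 0 (up to 0.126). Fbxw7, the main F-box receptor for Myc breakdown, changed by -0.17 ± 0.05 and was not called (0.0685).

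Of 18 measured genes of the Sin3 and histone deacetylase corepressor, which Mxd proteins recruit, 1 was called lower and 0 higher (5.56%, beside 11.3% of all genes), and the median log2 change was -0.05. The count became 2 under 5 of the 16 alternatives and 0 under 5. The scaffolds Sin3a and Sin3b changed by 0.02 ± 0.04 and 0.08 ± 0.05 (SE; limma adjusted p 0.797 and 0.334). The call was that of Ing1, a histone-reading subunit, at -0.28 ± 0.05 (adjusted p 0.0201), and it held in 2 of 6 fits with an array left out (up to 0.0751). Hdac1 changed by -0.16 ± 0.05 with no overlap of the groups, and did not pass the test (0.0621).

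Of 12 tested partners of Mga in its Polycomb complex, 2 fell and 0 rose (16.7% called, beside 11.3% of all genes). A negative log2 change was found in 10 of the 12 (median -0.12) and in 7767 of all 13965 genes. The called partners became 1 with the medians of the genes tested aligned and 1 with the replicate block. Tfdp1, the dimerization partner of E2F factors, fell by 0.59 ± 0.05 (SE; limma adjusted p 0.00411), from log2 levels of 10.47, 10.58 and 10.60 with PBS to 9.93, 9.95 and 10.01 with rapamycin. It kept its call in 6 of 6 fits with an array left out. Yaf2, a Ring1-binding subunit, fell by 0.23 ± 0.05 (adjusted p 0.0314) and was called in 1 of those fits (up to 0.103). L3mbtl2 and E2f6, which are particular to this complex, changed by -0.15 ± 0.07 and -0.13 ± 0.09 and did not pass the test (0.185 and 0.359). Pcgf6, also on this list, lay under the brightness threshold and was not tested (mean log2 3.97 with PBS and 4.04 with rapamycin).

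**Figure D3:**
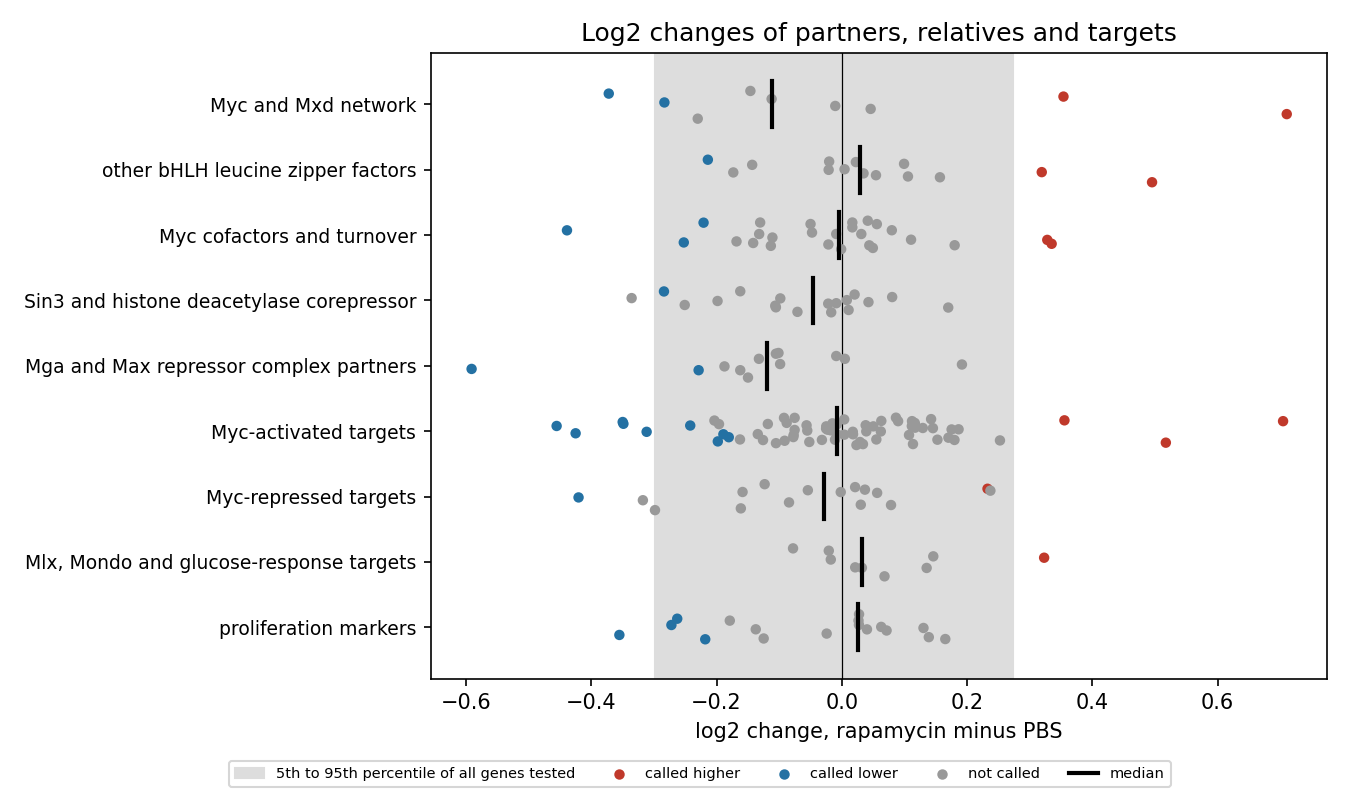
Log2 changes, rapamycin minus PBS, of the network genes and of 8 lists of relatives, partners and targets, 1 point per gene, in red where called higher, blue where called lower and grey where not called. Black bars are list medians, which lie between -0.12 and 0.03, and the grey band is the range from the 5th to the 95th percentile of all genes tested (-0.30 to 0.27).

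Genes that Myc is known to activate had changes on both sides of 0. Of 69 tested, 3 rose, 9 fell and 57 were not called. Of them 33 had a positive and 36 a negative log2 change, and the median was -0.01, beside -0.02 for all genes tested. The share called was 17.4%, beside the 11.3% of all genes. The split of 3 higher and 9 lower became 4 and 6 with the medians of the genes tested aligned or with the replicate block, and 4 and 4 without rapamycin mouse 3. Genes of ribosome production such as Ncl and Fbl, both nucleolar proteins, changed by 0.05 ± 0.09 and -0.03 ± 0.04 (SE; limma adjusted p 0.747 and 0.735).

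Ldha, Hk2, Polr1a and E2f2 had the largest test statistics among the targets that fell. Ldha, which makes lactate, stood at log2 levels of 11.96, 11.97 and 12.01 with PBS and of 11.45, 11.61 and 11.52 with rapamycin, a log2 change of -0.46 ± 0.05 (SE; limma adjusted p 0.00739). Hk2, the hexokinase that starts glycolysis, fell by 0.43 ± 0.05 (0.00770). Pkm, the pyruvate kinase of the same pathway, changed by -0.0076 ± 0.043 and was not called (0.929). Polr1a, the largest subunit of RNA polymerase I, fell by 0.35 ± 0.04 (0.00770), and the cell cycle factor E2f2 by 0.35 ± 0.05 (0.00971). Polr1a kept its call with any array left out, and Ldha, Hk2 and E2f2 lost theirs only without PBS mouse 2, each at an adjusted p of 0.0504. The Ldha promoter held the E-box at 2 places, 145 and 48 bases before a start site. The window of its other start site held none. The windows of Polr1a, Hk2, E2f2, Odc1, Hspe1, Mcm5, Ppat, Cdc25a, Shmt2 and Wdr74, the other called targets with a window, did not hold it. The nearer Ldha element is shown because Ldha had the largest test statistic of this list.
Ldha, chr7:46845739-46845778, plus strand: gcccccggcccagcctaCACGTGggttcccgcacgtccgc

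The targets that rose were Odc1, Ccnd2 and Hspe1, of which Ccnd2 and Hspe1 were named after their values were seen. Odc1, the first enzyme of polyamine synthesis, was at log2 levels of 7.36, 7.25 and 7.31 with PBS and of 7.78, 7.56 and 7.64 with rapamycin, a log2 change of 0.36 ± 0.07 (SE; limma adjusted p 0.0201). Cyclin D2 (Ccnd2) rose by 0.52 ± 0.10 (0.0235) and the mitochondrial co-chaperonin Hspe1 by 0.70 ± 0.14 (0.0248). The chaperonin Hspd1 of the same list changed by -0.01 ± 0.05 and was not called (0.902). With an array left out Odc1 was called in 2 of 6 fits (adjusted p up to 0.0889), Ccnd2 in 2 (up to 0.103) and Hspe1 in 1 (up to 0.109). The count of called targets, 12, became 5, 1 and 4 with PBS mouse 1, 2 or 3 left out, and 4, 5 and 8 with rapamycin mouse 1, 2 or 3 left out.

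Of 16 measured genes that Myc is known to repress, 1 rose and 1 fell (median -0.03). The share called, 12.5%, was near the 11.3% of all genes. Ndrg1, a stress-responsive gene, rose by 0.23 ± 0.05 (SE; limma adjusted p 0.0382) and its relative Ndrg2 fell by 0.42 ± 0.08 (0.0227). Ndrg2 was called in 2 of 6 fits with an array left out (adjusted p up to 0.0986) and Ndrg1 in 0 (up to 0.123). Of 9 tested targets of Mlx with the Mondo factors, Arrdc4, an arrestin-like protein that lowers glucose uptake, rose by 0.32 ± 0.07 (0.0370) and the other 8 did not pass the test. Here too the share called, 11.1%, was near that of all genes. The Arrdc4 call held in 1 of 6 fits with an array left out (up to 0.121). Txnip, the best known of these targets, changed by 0.14 ± 0.07 and overlapped between groups (0.239). The Arrdc4 window held an E-box, shown because Mlx and its partners bind such elements.
Arrdc4, chr7:68749409-68749448, minus strand: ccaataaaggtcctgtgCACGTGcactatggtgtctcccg

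Myc and Mxd1 are known to follow the division and the maturity of myeloid cells, so both were set beside markers. Of 17 proliferation genes 0 were called higher and 4 lower (23.5% called, beside 11.3% of all genes). The list as a whole had changes on both sides of 0, with 9 positive and 8 negative log2 changes and a median of 0.03. Tpx2, a spindle factor, fell by 0.22 ± 0.04 (SE; limma adjusted p 0.0195), Chaf1a by 0.36 ± 0.07 (0.0211), Mcm3 by 0.26 ± 0.06 (0.0334) and Rrm2 by 0.27 ± 0.07 (0.0492). Of the 17 genes, 0 were called with PBS mouse 2 or 3 or rapamycin mouse 1 or 2 left out, 1 without PBS mouse 1 and 3 without rapamycin mouse 3. Among the 4 named, the last of these fits called Tpx2 (0.0345) and Rrm2 (0.0249), and Chaf1a and Mcm3 were called in 0 of the 6. Among 11 measured markers of mature neutrophils 2 were called higher, Il1r2 (0.70 ± 0.07, adjusted p 0.00463) and Trem1 (0.35 ± 0.09, 0.0467), and 1 lower, Cd101 (-1.12 ± 0.22, 0.0236). The share called was 27.3% of these 11 markers. The summed signal of the 11 spanned log2 15.67 to 15.76 with PBS and 15.64 to 15.78 with rapamycin. Ly6g, which defines neutrophils, changed by -0.31 ± 0.14 (adjusted p 0.202), and the selection marker Itgam (CD11b) by -0.12 ± 0.06 (0.221). For 8 genes of neutrophil progenitors and primary granules the sum spanned 13.03 to 13.08 with PBS and 12.94 to 13.17 with rapamycin. Only Gfi1 was called (-0.34 ± 0.07, 0.0273), which is 12.5% of these 8.

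Sums of markers differed between the groups for some other cells. A sum adds unlogged values, so the brightest genes weigh most. The summed signal of 12 macrophage genes was higher in each rapamycin mouse (log2 13.03 to 13.07) than in any PBS mouse (12.53 to 12.92), with 1 gene called higher (Cd68) and 1 lower (Slc40a1). Of these 12 genes, 9 had a positive log2 change and 3 a negative one (median 0.17). The sum of 8 dendritic cell genes was also higher (9.13 to 9.38 against 8.70 to 8.99), with Itgax, the brightest of them, the only call. Of the 6 dendritic cell genes tested, 2 had a positive and 4 a negative log2 change (median -0.04). The sum of 5 erythroid genes was higher as well (7.93 to 8.11 against 7.69 to 7.75), with Slc4a1 the only call. The sum of 8 T cell genes was lower (8.18 to 8.29 against 8.43 to 8.55), with Cd8a and Cd3g called, and that of 6 genes of B and plasma cells (7.39 to 7.53 against 7.54 to 7.62), with Cd79b called. Sums of 11 monocyte, 7 secondary granule, 5 eosinophil, 6 NK cell and 6 basophil and mast cell genes overlapped between groups. Ace, Cd300e and Ccr2 were called lower among the monocyte genes, and the other 4 lists held no call. Of the 11 monocyte genes, 4 had a positive and 7 a negative log2 change (median -0.03). The groups did not overlap for 2 higher monocyte genes, Clec4a1 and Ly86 (limma adjusted p 0.0553 and 0.145), and for 4 lower ones. Among all genes tested this held for 12.6% higher and 19.4% lower. The basophil and mast cell sums overlapped only just (lowest PBS sum log2 8.326, highest rapamycin sum 8.327). In that list Mcpt8 and Cpa3 were lower in each rapamycin mouse than in any PBS mouse but did not pass the test. Their log2 changes were -0.703 and -0.564 (limma adjusted p 0.066 for each). Gata2 and Kit, also tested there, overlapped between groups. The brightness threshold of log2 4.72 was not reached by 4 of 6 NK, 4 of 6 B and plasma cell and 3 of 5 eosinophil genes. It was also not reached by 2 of 6 basophil and mast cell, 2 of 8 T cell and 2 of 8 dendritic cell genes. These dim genes, among them the NK markers Ncr1 and Klrb1c and the B cell marker Ms4a1, were still part of the sums. Of the tested genes, 16.7% were called in the macrophage list, 16.7% in the dendritic cell list and 20% in the erythroid list. The share was 33.3% for T cells, 50% of 2 genes for B and plasma cells and 27.3% for monocytes, beside 11.3% of all genes. The part of these marker shifts in the values of Myc and Mxd1 was not tested.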

How the data were processed

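Total RNA of 6 mice was labelled with biotin and read on 1 array each. The authors deposited 1 log2 value per probe set and array, made with RMA in Affymetrix Expression Console per the submitters' processing notes (no version is named there). RMA equalises the arrays' distributions, so a shift of most genes would be removed. Arrays have no read depth, and their number limits the precision. Names came from GEO's annotation of the platform, which gave 1 symbol to 21789 of 35556 probe sets. For genes with several the brightest probe set was taken, and 5973 of 19938 genes with a mean under log2 4.72 (30th percentile of named probe sets) were left out. Groups were compared with limma 3.58.1 (lmFit, eBayes, 2-sided) in R 4.3.3, checked on simulated data, and plotted with matplotlib 3.10.9. List entries, 278 of 297 matched, came from general knowledge, and some genes stand in 2 lists. The members and lists were chosen with earlier results of these data known. Named were all members, the called relatives and up to 5 called genes per list with the largest statistic, and any further gene was picked with its values in view. The labels call the mice biological replicates, and no 2 arrays shared over 6.99% of values. Array batches were not tested. The alternatives tried were other brightness filters, scalings, probe set averaging, variance models, array weights, a replicate block and leaving out each array.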

Additional observations from a re-analysis of the deposited data

How the results depend on the processing

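The log2 changes of 8 of the 9 members kept their sign under all 16 alternatives, and Max, at -0.01, kept it in 13. The 4 member calls held after repeated quantile normalization, with array medians aligned, with the medians of the genes tested aligned (added after seeing the data), with the mean of probe sets, at the 50th percentile filter, and with array weights or a trended robust variance. The size of the Mxd1 log2 change moved from -0.37 to -0.49 after repeated quantile normalization. Fits with an array left out gave -0.43 to -0.28 for Mxd1. Without a brightness filter 2 members, 3 cofactors and 0 Mondo targets were called. With an unmoderated fit 0 members were called of 86 genes in all, and 1 relative, 1 cofactor, 0 Sin3 genes, 1 Mga partner, 1 activated, 0 repressed and 0 Mondo targets and 1 proliferation gene. Called Sin3 genes became 2 with averaged probe sets, a trended robust variance or any of the 3 rescalings. Mga partners became 4 after quantile normalization and 1 with the medians of the genes tested aligned or with the replicate block. Lower genes made up 61.0% of all calls, 71.0% with array medians aligned, 68.8% after quantile normalization and 44.7% with the medians of the genes tested aligned.

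Leaving out 1 array gave 0 to 4 called members, 113 to 1336 genes, 1 to 2 relatives, 1 to 4 cofactors, 0 to 1 Sin3 genes, 1 to 2 Mga partners, 1 to 8 activated targets, 0 to 1 repressed targets, 0 to 1 Mondo targets and 0 to 3 proliferation genes. No array could be left out without losing a member call. The labels state no pairing, so the numbers were not taken as pairs. Same-numbered mice of the groups deviated together with correlations of 0.26, 0.01 and 0.05, and mice of unlike number with -0.19 to 0.14. With 3 mice per group these values cannot settle whether the numbers mark pairs. With the replicate block 4 members were called of 1691 genes in all: Mga was not (limma adjusted p 0.0543) and Mxd4 was (0.0476). Myc had an adjusted p of 0.00333 in that fit. Signal over background was not used here.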
